A study of Mus musculus with 4 samples.

Results

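The Cyp4a and Cyp4f genes encode the microsomal cytochrome P450 enzymes that hydroxylate fatty acids at the methyl end. Of the 46603 genes in the count table, 10 were taken by symbol, 6 of subfamily Cyp4a (Cyp4a10, Cyp4a12a, Cyp4a12b, Cyp4a14, Cyp4a31 and Cyp4a32) and 4 of subfamily Cyp4f (Cyp4f13, Cyp4f14, Cyp4f15 and Cyp4f16). Liver RNA of 4 male HuR flox/flox mice on the C57BL/6 J background was sequenced, with 1 library per mouse. Control mice 1 and 2 had received AAV8-TBGP-GFP, and mice 3 and 4, labelled HuR hKO, had received AAV8-TBGP-Cre by the tail vein. All 4 mice ate a Western diet (42% of energy from fat, 0.1% cholesterol) and drank water with 23.1 g/L fructose and 18.9 g/L glucose for 4 weeks. Ages in weeks are not given in the sources used here. The thyroxine-binding globulin promoter (TBGP) drives Cre in hepatocytes, so the other cells of the liver keep their HuR. Every mouse of both groups had received a viral vector.

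Omega-oxidation begins when a CYP4 enzyme places a hydroxyl group on the last carbon of a fatty acid. Alcohol and aldehyde dehydrogenases then make a dicarboxylic acid, which is shortened in peroxisomes. CYP4A enzymes act mainly on medium- and long-chain fatty acids and on arachidonic acid, and their genes are classical targets of the nuclear receptor PPAR-alpha in liver, whereas CYP4F enzymes are best known for the inactivation of leukotriene B4 and related eicosanoids.

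The libraries held between 13032095 and 19715577 counts in genes, the largest from mouse 4. Hepatocyte markers summed to between 69200 and 78000 CPM (counts per 1000000 counts of a library, scaled by the trimmed mean of M values, TMM), and 0 of the 10 passed the test. The counts of the targeted gene did not follow the labels. Elavl1, which encodes HuR, had 28.4 and 25.9 CPM in control mice 1 and 2 but 37.7 and 34.4 CPM in mice 3 and 4, and so differed by 0.41 ± 0.14 (SE) on the log2 scale. Counts per gene cannot separate the floxed exons from the rest of Elavl1. For this reason every direction below is that of the labels, positive where the libraries labelled HuR hKO were higher. The labels name 4 separate mice, 2 in each group, so the p-values refer to the spread between animals. That spread was estimated in part from the other genes tested, as edgeR does.

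The Cyp4a genes lie side by side on chromosome 4 and the Cyp4f genes on chromosome 17 (GRCm38). Some are nearly the same gene, and a read from such a stretch cannot be given to 1 copy by its letters. The 60 coding bases around the heme-binding signature (GENCODE M21 transcripts, GRCm38), the part of a P450 that holds the iron, show which Cyp4a copies are alike. Capitals mark the bases that differ from Cyp4a10 in its place, and the signature runs from base 16 to base 45.
Cyp4a10 (coding bases 1330 to 1389): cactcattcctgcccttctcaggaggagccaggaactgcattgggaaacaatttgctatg
Cyp4a12a (coding bases 1327 to 1386): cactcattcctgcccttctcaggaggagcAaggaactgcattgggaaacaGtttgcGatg
Cyp4a14 (coding bases 1324 to 1383): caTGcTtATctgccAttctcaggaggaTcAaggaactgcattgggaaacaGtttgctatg

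Cyp4a31 and Cyp4a32 carried the same 60 bases as Cyp4a10, with 0 differences, and Cyp4a12b the same bases as Cyp4a12a. Cyp4a14 differed from Cyp4a10 at 9 of these bases. Over the whole coding sequence Cyp4a12a and Cyp4a12b were 98.5% identical, Cyp4a10 and Cyp4a32 97.2%, and Cyp4a10 and Cyp4a31 96.6%, whereas Cyp4a14 shared between 75.2% and 75.9% with the other Cyp4a genes. Of all 100-base stretches of its transcript, Cyp4a12a shared 35.8% with Cyp4a12b, Cyp4a32 shared 20.1% with other members, Cyp4a10 12.7% and Cyp4a31 8.22%. Cyp4a14 and the 4 Cyp4f genes shared 0%. The separate values of Cyp4a12a and Cyp4a12b, and of Cyp4a10, Cyp4a31 and Cyp4a32, are therefore uncertain in how reads were divided among the copies, and the sum of each set is given as well.

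In the Cyp4f subfamily the same window differed in every member. Capitals below mark the bases that differ from Cyp4f14, the best studied of them.
Cyp4f14 (coding bases 1366 to 1425): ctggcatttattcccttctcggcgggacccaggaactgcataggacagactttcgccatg
Cyp4f13 (coding bases 1363 to 1422): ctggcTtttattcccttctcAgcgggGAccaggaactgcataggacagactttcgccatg
Cyp4f15 (coding bases 1402 to 1461): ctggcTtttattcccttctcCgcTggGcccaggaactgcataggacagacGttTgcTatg
Cyp4f16 (coding bases 1366 to 1425): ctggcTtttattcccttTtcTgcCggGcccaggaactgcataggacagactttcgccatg

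Whole Cyp4f coding sequences were between 76.2% (Cyp4f13 and Cyp4f15) and 82.5% (Cyp4f13 and Cyp4f16) identical, and no 100-base stretch was common to any pair of them.

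The question of the comparison is how liver gene expression differs between control mice and mice given Cre under metabolic stress. Cyp4a14 was the member with the largest difference, 2.51-fold higher in the libraries labelled HuR hKO, and Cyp4f16, which is close to the floor of detection, was 2.06-fold higher. These 2 of 10 members passed the threshold of a fold of at least 1.8 with an unadjusted p under 0.05, both higher, and 0 were lower. Among all 13001 genes tested, 1.21% passed it as higher and 0.915% as lower. With Benjamini-Hochberg adjustment over all genes, 0 of 10 members had an adjusted p under 0.05 by edgeR's quasi-likelihood test, by DESeq2 or by limma-voom, against 0.0231% of all genes by edgeR. By edgeR, 2 members had an unadjusted p under 0.05. Over the 10 members the median log2 fold change was 0.21, 8 of them having positive and 2 negative values, and over all genes it was 0.0020, with 6544 positive and 6457 negative. Without scaling for library size the median of all genes moved to 0.31 and all 10 members had positive values, Cyp4a12a and Cyp4f13 being those that turned. All 10 members passed the filter on low counts. The genes were picked with earlier results of these data known, so these counts describe them and are no independent evidence of a direction.

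**Figure D1:**
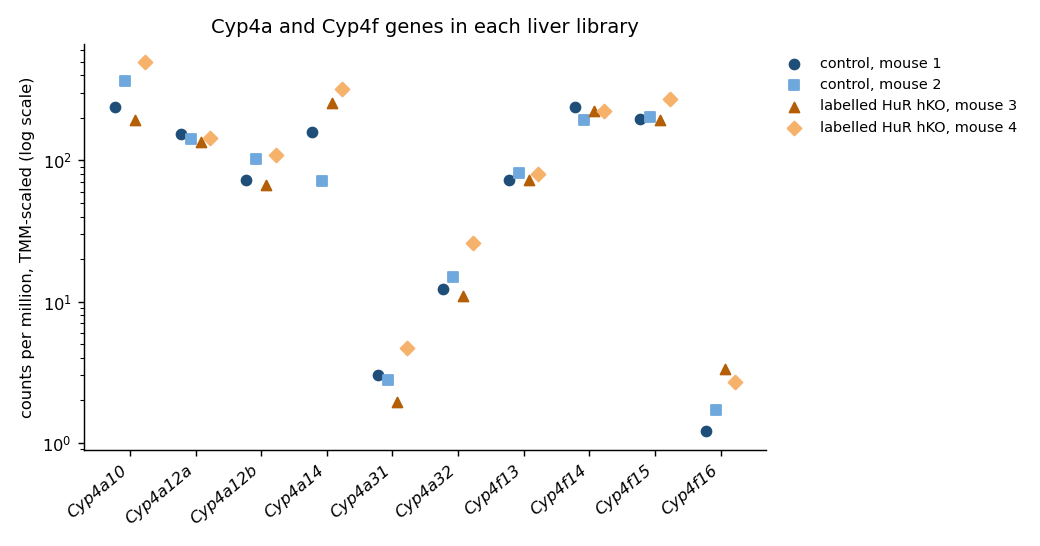
Each point is 1 liver library, with CPM (TMM-scaled) on a log axis for the 10 Cyp4a and Cyp4f genes. The libraries labelled HuR hKO (triangle and diamond) both lie above both control libraries (circle and square) for Cyp4a14 and Cyp4f16, and overlap them for the other 8 genes.

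Cyp4a14 (ENSMUSG00000028715, chr4:115486200-115496142, minus strand, 12 exons) encodes a lauric acid hydroxylase that peroxisome proliferators induce strongly in mouse liver. It had 2101 and 954 counts in control mice 1 and 2, and 3651 and 6055 in mice 3 and 4. Scaled, these were 158 and 71.2 CPM for the controls against 255 and 321 CPM for the other pair. Mice 3 and 4 each exceeded both controls, and the control mice differed from each other by more than the other pair did. The means were 115 ± 61.4 CPM and 288 ± 47.2 CPM (SD, n = 2 each). The log2 fold change was 1.33 ± 0.32 (SE), with a 95% interval from 0.59 to 2.07. Its p by edgeR's quasi-likelihood test was 0.0032 unadjusted and 0.35 after Benjamini-Hochberg adjustment. An exact permutation test of 2 mice against 2 cannot go below p = 0.333 for any gene here.

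The size of the Cyp4a14 difference rested in part on control mouse 2, the lowest of the 4 libraries. Without control mouse 1 the log2 fold change was 2.00, with an adjusted p of 0.012 in edgeR's quasi-likelihood test, and without control mouse 2 it was 0.87, with an adjusted p of 0.18. Without mouse 3 or mouse 4 it was 1.47 and 1.15. Cyp4a14 passed the fold and p threshold in all 13 alternatives run, with adjusted p-values between 0.00088 and 0.95. Fewer cells of a type and less RNA per cell cannot be told apart in these bulk libraries, for Cyp4a14 or any other gene.

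**Figure D2:**
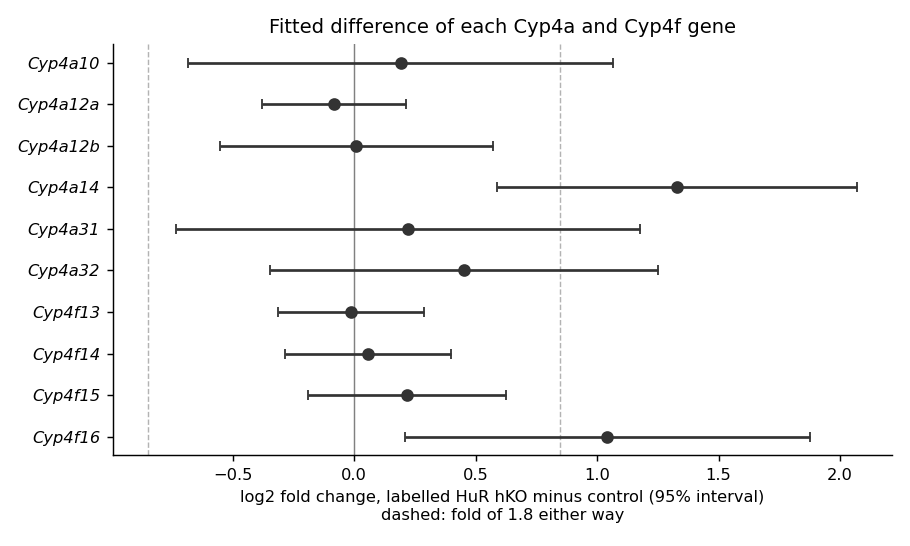
Points are log2 fold changes (libraries labelled HuR hKO minus control) fitted by edgeR for each gene, with 95% intervals as bars and a fold of 1.8 either way as dashed lines. The intervals of Cyp4a14 (0.59 to 2.07) and Cyp4f16 (0.21 to 1.88) lie above 0, and the other 8 include 0.

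Cyp4a10 (ENSMUSG00000066072, chr4:115518264-115533649, plus strand, 13 exons) is the other classical target of peroxisome proliferators among the members. It had 240 and 362 CPM in control mice 1 and 2, and 194 and 493 CPM in mice 3 and 4, with the lowest value in mouse 3 and the highest in mouse 4. The groups overlapped, and the log2 fold change was 0.19 ± 0.38 (SE), with a 95% interval from -0.68 to 1.07 and an adjusted p of 0.94 by edgeR's quasi-likelihood test. Mice 3 and 4 differed from each other by 2.54-fold, and control mice 1 and 2 by 1.51-fold. The direction turned with the animals used, from a log2 fold change of 0.69 without mouse 3 to -0.63 without mouse 4, and to -0.09 without control mouse 1.

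Its near-identical neighbours showed the same order of mice 3 and 4. Cyp4a32 (ENSMUSG00000063929, chr4:115600969-115621602, plus strand) had 12.3 and 14.9 CPM in control mice 1 and 2, and 10.9 and 25.9 CPM in mice 3 and 4. Cyp4a31 (ENSMUSG00000028712, chr4:115563649-115579015, plus strand) had 3.01 and 2.76 CPM and then 1.95 and 4.67 CPM. For all 3 genes mouse 3 was the lowest and mouse 4 the highest of the 4 libraries, so the groups overlapped. The log2 fold changes were 0.45 ± 0.35 (SE) for Cyp4a32 and 0.22 ± 0.42 for Cyp4a31, and both turned negative without mouse 4 (-0.32 and -0.56). Without mouse 3, Cyp4a32 passed the fold and p threshold, at a log2 fold change of 0.92. Summed into 1 gene, the counts of Cyp4a10, Cyp4a31 and Cyp4a32 gave 256 and 380 CPM against 207 and 524 CPM, and a log2 fold change of 0.20 ± 0.38 with a 95% interval from -0.66 to 1.07.

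The counts of Cyp4a14 and Cyp4a10 stood in different proportion from mouse to mouse. Cyp4a14 had 0.658 and 0.197 counts per count of Cyp4a10 in control mice 1 and 2, and 1.31 and 0.652 in mice 3 and 4. Mouse 4 had the proportion of control mouse 1, and the groups overlapped. Of all Cyp4a counts, Cyp4a14 took 24.7% (95% Wilson interval 23.8 to 25.6) in control mouse 1 and 10.3% (9.65 to 10.9) in control mouse 2. It took 38.5% (37.5 to 39.4) in mouse 3 and 29.2% (28.6 to 29.9) in mouse 4. Cyp4a10 was the largest share in 3 of the 4 libraries, at 37.6%, 52.1% and 44.9% in mice 1, 2 and 4, but held 29.4% in mouse 3, below Cyp4a14. These intervals cover counting error only.

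**Figure D3:**
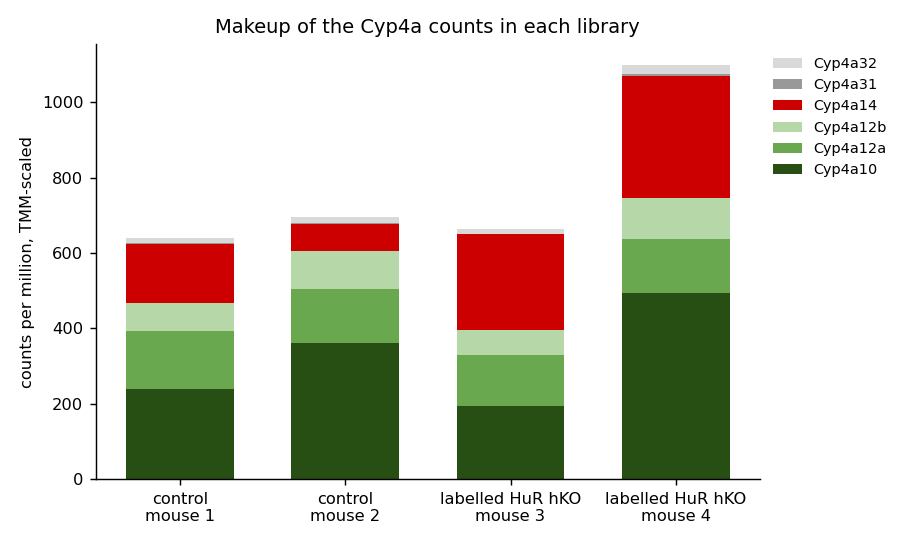
Bars stack the CPM (TMM-scaled) of the 6 Cyp4a genes in each liver library, from 0. The total is 640 and 695 CPM in the control libraries and 662 and 1099 CPM in the libraries labelled HuR hKO, and the red part is Cyp4a14.

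Summed over the subfamily, Cyp4a counts were 640 and 695 CPM in control mice 1 and 2, 662 CPM in mouse 3 and 1099 CPM in mouse 4, so that 1 of the 2 libraries labelled HuR hKO stood apart. In mouse 3 the higher Cyp4a14 stood beside lower Cyp4a10, while in mouse 4 both were at their highest. The group means were 667 ± 38.7 CPM and 881 ± 309 CPM (SD, n = 2 each), and the groups overlapped.

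Cyp4a12a (ENSMUSG00000066071, chr4:115299046-115332815, plus strand) encodes the main enzyme of male mice that makes 20-HETE from arachidonic acid. It was the steadiest of the Cyp4a genes, at 153 and 142 CPM in control mice 1 and 2, and 134 and 145 CPM in mice 3 and 4. The groups overlapped, and the log2 fold change was -0.08 ± 0.13 (SE) with a 95% interval from -0.38 to 0.21. A change of the size of Cyp4a14's lies outside that interval. Cyp4a12b (ENSMUSG00000078597, chr4:115411624-115439034, plus strand) had 72.8 and 102 CPM and then 66.3 and 109 CPM, a log2 fold change of 0.01 ± 0.24. Summed, the pair had 226 and 244 CPM and then 200 and 254 CPM, a log2 fold change of -0.05 ± 0.15. On the opposite strand Cyp4a12b overlaps Gm12837, which had 0 counts in every library.

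Among the Cyp4f genes, Cyp4f14 and Cyp4f15 were abundant and Cyp4f16 was barely detected. Cyp4f14 (ENSMUSG00000024292, chr17:32905070-32917342, minus strand), which hydroxylates leukotriene B4, had 240 and 192 CPM in control mice 1 and 2, and 225 CPM in each of mice 3 and 4. The log2 fold change of Cyp4f14 was 0.06 ± 0.15 (SE), with a 95% interval from -0.29 to 0.40. Mice 3 and 4 fell between the 2 controls.

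Cyp4f15 (ENSMUSG00000073424, chr17:32685627-32703352, plus strand) had 195 and 204 CPM in control mice 1 and 2, 192 CPM in mouse 3 and 272 CPM in mouse 4. Only the value of mouse 4 stood apart, and the log2 fold change of 0.22 ± 0.18 (SE) fell to -0.05 without it. Cyp4f13 (ENSMUSG00000024055, chr17:32924688-32947402, minus strand) had 72.6 and 81.3 CPM and then 72.9 and 79.6 CPM, a log2 fold change of -0.01 ± 0.13 with a 95% interval from -0.32 to 0.29. The 2 groups of Cyp4f13 covered nearly the same range.

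Cyp4f16 (ENSMUSG00000048440, chr17:32536558-32551798, plus strand) had 16 and 23 counts in control mice 1 and 2, and 48 and 51 in mice 3 and 4. These were 1.20 and 1.72 CPM against 3.35 and 2.71 CPM, so mice 3 and 4 each exceeded both controls. The log2 fold change was 1.04 ± 0.36 (SE), with a 95% interval from 0.21 to 1.88. By edgeR's quasi-likelihood test Cyp4f16 had an unadjusted p of 0.020 and a Benjamini-Hochberg adjusted p of 0.57. It no longer passed the threshold without control mouse 1 (log2 fold change 0.80), without mouse 3 (0.87), or by DESeq2's Wald test, where the unadjusted p was 0.061. The Cyp4f sum, dominated by Cyp4f14 and Cyp4f15, was 509 and 479 CPM and then 493 and 579 CPM.

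Cyp4a14 and Cyp4f16 were the 2 of 10 members whose groups did not overlap with the libraries labelled HuR hKO higher, and 0 of 10 did so with them lower. Among all genes tested, 19.3% did not overlap in the first way and 18.8% in the second, so 2 of 10 is near the share of all genes.

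**Figure D4:**
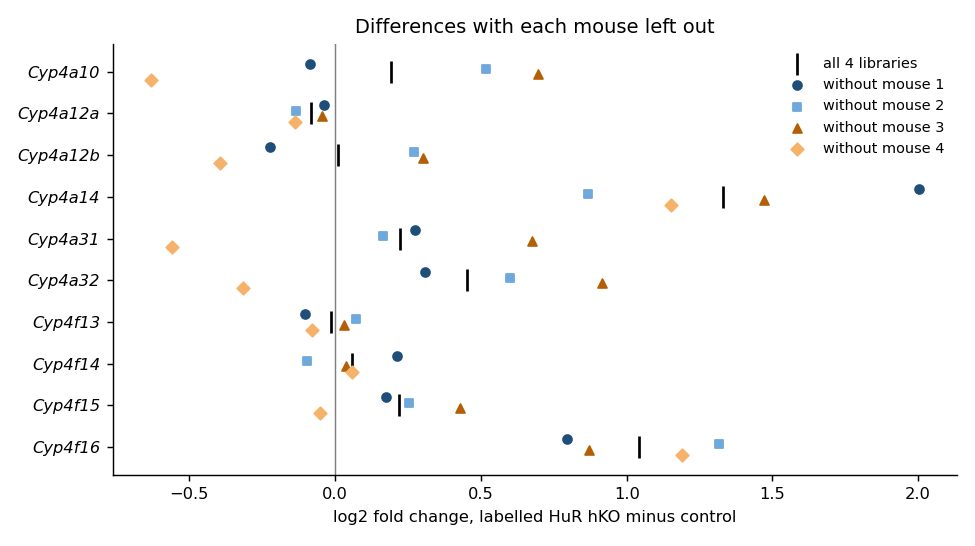
For each gene the vertical bar is the log2 fold change (libraries labelled HuR hKO minus control) from all 4 libraries, and the symbols are the values with 1 mouse left out. Cyp4a14 stays between 0.87 and 2.00 and Cyp4f16 between 0.80 and 1.32, whereas Cyp4a10 runs from -0.63 to 0.69.

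Levels of different genes were compared per length, as CPM per kilobase of transcript. In the control libraries Cyp4a10 stood highest, at 143 ± 40.7 CPM per kilobase (SD, n = 2), above Cyp4f14 at 97.3 ± 15.3 and Cyp4f15 at 92.1 ± 2.95. Cyp4f14 and Cyp4f15 overlapped each other but not Cyp4a10 or the next gene, Cyp4a12a. Cyp4a12a followed at 61.0 ± 3.19, Cyp4a14 at 45.9 ± 24.6, Cyp4f13 at 43.9 ± 3.50 and Cyp4a12b at 36.4 ± 8.49 CPM per kilobase, each overlapping the next in order. Cyp4a32 at 8.86 ± 1.20, Cyp4a31 at 1.15 ± 0.070 and Cyp4f16 at 0.65 ± 0.16 CPM per kilobase formed the low end without overlap. In the libraries labelled HuR hKO, Cyp4a14 moved from the fifth to the second place, at 115 ± 18.9 CPM per kilobase, and overlapped Cyp4a10 at 163 ± 100.2 and Cyp4f15 at 107 ± 25.9. Cyp4f16 and Cyp4a31 changed places at the low end, at 1.35 ± 0.20 and 1.32 ± 0.77.

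The genes whose levels over the 4 libraries lay nearest to those of Cyp4a14 were not CYP4 genes. Among 11155 genes with a mean log2 CPM of at least 1, the 5 with the smallest root mean square difference in centred log2 CPM were Morc4 (0.17), Ugt1a9 (0.19), Mvd (0.20), 4930480G23Rik (0.24) and Tubb2a (0.26). Ugt1a9, a UDP-glucuronosyltransferase, had 22.6 and 14.6 CPM in control mice 1 and 2, and 41.9 and 55.7 CPM in mice 3 and 4. Mvd, an enzyme of cholesterol synthesis, had 4.21 and 2.46 CPM and then 6.21 and 7.91 CPM. On this measure, which is a description over 4 libraries, Cyp4f16 ranked 503 and Cyp4a10 ranked 9935.

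Of 12 further Cyp4 genes in the table, 4 had enough counts to be tested and 0 passed the threshold. Their values were positive for 2 and negative for 2, and the median log2 fold change was 0.02. Cyp4v3, which acts on long-chain fatty acids, had 6476 and 5891 counts in control mice 1 and 2, and 6084 and 8638 in mice 3 and 4. These are raw counts, and the library of mouse 4 was the largest. Scaled, the 12 genes, most of whose counts were those of Cyp4v3, summed to 511 and 461 CPM in control mice 1 and 2. In mice 3 and 4 they summed to 449 and 480 CPM. Cyp4b1 had a log2 fold change of 0.09 ± 0.16 (SE) and Cyp4f18 one of 0.28 ± 0.53. Cyp4a29, Cyp4a30b, Cyp4a28-ps, Cyp4f37 and Cyp4f41-ps had 0 counts in all 4 libraries.

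Among the genes that act beside or after the CYP4 step, 0 passed the fold and p threshold. Of 24 genes for the electron donors of P450 enzymes, the alcohol and aldehyde dehydrogenases and the peroxisomal breakdown of dicarboxylic acids, 12 had positive and 12 negative log2 fold changes, median -0.0026. Without scaling for library size the medians of this list and of the 9 other context lists moved up by between 0.302 and 0.351, close to the shift of all genes, so the signs given for lists are relative to the TMM scale. Acot8, a peroxisomal acyl-CoA thioesterase, had 18.8 and 23.6 CPM in control mice 1 and 2, and 28.2 and 33.1 CPM in mice 3 and 4, a log2 fold change of 0.53 ± 0.16 (SE). Pex11a, which controls peroxisome division, went the other way, at 131 and 175 CPM and then 114 and 111 CPM, a log2 fold change of -0.45 ± 0.16.

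PPAR-alpha target genes outside the family were spread on both sides of 0. Of the 31 tested, 18 had positive and 13 negative log2 fold changes, with a median of 0.08. Fgf21, a hormone of fasting, was the 1 gene that passed the fold and p threshold, at 0.98 and 1.79 CPM in control mice 1 and 2, and 3.28 and 2.71 CPM in mice 3 and 4. It no longer passed without control mouse 1 (log2 fold change 0.72) or without mouse 3 (0.94), or by DESeq2's Wald test, where the unadjusted p was 0.055. Vnn1, a pantetheinase, had 65.2 and 83.5 CPM and then 48.2 and 38.0 CPM, a log2 fold change of -0.79 ± 0.17 (SE), short of the fold threshold. The list's median was -0.18 without control mouse 1 and 0.22 without control mouse 2. Ppara itself had 66.7 and 64.7 CPM in control mice 1 and 2, and 74.5 and 106 CPM in mice 3 and 4, a log2 fold change of 0.46 ± 0.17, under the fold threshold. It was 0.18 without mouse 4 and 0.67 without mouse 3. Rxra, its partner in DNA binding, had a log2 fold change of 0.06 ± 0.16.

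Among 25 regulators of liver metabolism, 12 had positive and 13 negative log2 fold changes (median -0.0086). Bcl6, a repressor with a part in the sex difference of liver genes, had 68.7 CPM in control mouse 2, the library with the lowest Cyp4a14, and 9.86, 8.51 and 15.3 CPM in mice 1, 3 and 4. Bcl6 passed the threshold as lower, but its log2 fold change of -1.71 became 0.28 without control mouse 2. Whether Bcl6 has a part in the level of Cyp4a14 was not tested.

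Genes with a sex bias in mouse liver are of interest beside Cyp4a12a, which is male-biased. Of 16 other male-biased genes, 3 had positive and 13 negative log2 fold changes (median -0.43). Of 23 female-biased genes, 10 had enough counts to be tested, 7 with positive and 3 with negative values (median 1.08). Cyp2a4 and Cyp2b13 passed the filter on low counts only through the libraries labelled HuR hKO, and Cyp2c40 only through the controls. The female-biased counts and median therefore depend in part on that filter. Ugt2b38 and C6 among the male-biased genes passed the threshold as lower (log2 fold changes -1.21 and -0.99) and Mup21 as higher (0.86). Cyp2a4, Cyp2b13, Slc22a27, Cyp2b9 and Atp6v0d2 among the female-biased genes passed it as higher (4.81, 2.40, 1.75, 1.52 and 1.43), and Cyp2c40 as lower (-1.38). Ugt2b38, Slc22a27 and Cyp2b9 passed in all alternatives run. Cyp2a4 and Cyp2b13 passed in every alternative that tested them, but the filter of at least 10 counts in every library left them out. C6 (-0.71 without control mouse 1, -0.83 without mouse 4), Mup21 (0.63 without control mouse 2, 0.51 without mouse 3), Atp6v0d2 (1.06 without control mouse 1, 0.46 without mouse 4) and Cyp2c40 (-1.17 without control mouse 2, -0.85 without mouse 3) did not pass in all. The male-biased median was -0.43 beside a value of -0.08 for Cyp4a12a, and whether they differ was not tested. With control mouse 2 left out they were -0.49 and -0.13, and with mouse 3 left out -0.39 and -0.04. With control mouse 1 left out they were -0.16 and -0.04, and with mouse 4 left out -0.32 and -0.14. Without scaling for library size the male-biased median was -0.08 and the value of Cyp4a12a 0.24. The female-biased median was 0.71 with control mouse 1 or mouse 4 left out and 1.65 with control mouse 2 left out.

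In the eicosanoid pathways, 11 of 16 genes were tested, 5 with positive and 6 with negative log2 fold changes (median -0.02), and 0 passed the threshold. Cyp2j9, another cytochrome P450 gene, had a log2 fold change of -0.46 ± 0.21 (SE), and Ephx1, the microsomal epoxide hydrolase, one of 0.16 ± 0.15. Of 14 pericentral genes, 9 had positive and 5 negative values (median 0.09), and Rhbg, an ammonium transporter, passed the threshold at 5.12 and 13.4 CPM against 13.2 and 33.2 CPM, but not without control mouse 1 (log2 fold change 0.79) or without mouse 4 (0.51), nor by DESeq2's Wald test (unadjusted p = 0.137) or the robust quasi-likelihood test (unadjusted p = 0.187). Glul, glutamine synthetase, had a log2 fold change of 0.53 ± 0.17. Of 14 periportal genes, 10 had positive and 4 negative values (median 0.06), and Gls2 at 0.46 ± 0.14 and Sds at 0.44 ± 0.15, both enzymes of amino acid breakdown, had the smallest p-values of that list. Of 16 tested clock genes, 8 had positive and 8 negative values (median -0.0082), and 0 passed, with Nfil3 at -0.30 ± 0.15 and Clock at -0.40 ± 0.19.

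Markers of other cells were read beside the members, and their part in the Cyp4a14 and Cyp4f16 differences was not tested. Kupffer cell markers summed to 171 and 178 CPM in control mice 1 and 2, and 202 and 188 CPM in mice 3 and 4, with 5 of 7 fold changes positive. The 6 endothelial markers summed to 179 and 158 CPM and then 205 and 186 CPM, all 6 fold changes positive, and the 6 stellate cell markers to 180 and 182 CPM and then 195 and 247 CPM, 5 positive. Neutrophil markers summed to 2.18 and 2.39 CPM and then 1.95 and 1.54 CPM, with the 1 marker tested negative and Ly6g at 0 in every library. T and B cell markers summed to 1.96 and 5.60 CPM and then 5.44 and 5.79 CPM, with all 3 tested positive and a median of 0.96, which was 0.25 without control mouse 1. Cholangiocyte markers summed to 52.5 and 27.5 CPM and then 39.6 and 49.8 CPM, 2 of the 4 tested being positive, and adipocyte markers to 1.58 and 1.79 CPM and then 1.67 and 3.03 CPM, with the 1 tested negative. Kidney also expresses Cyp4a genes, and its markers were near 0, with Slc12a1, Kap and Slc22a6 at 0 in every library and a sum of at most 0.226 CPM. In these marker lists 0 genes passed the threshold.

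Because HuR binds AU-rich stretches of messenger RNA, the annotated 3′ untranslated regions of the members were searched for the pentamer ATTTA. Cyp4a14, Cyp4a12b and Cyp4f14 each held 1 match, and Cyp4a10, Cyp4a12a, Cyp4a31, Cyp4f13, Cyp4f15 and Cyp4f16 held 0, and the transcript of Cyp4a32 has no annotated 3′ region. The pentamer stands in 61.6% of the 20350 genes with an annotated 3′ region, and the longer TATTTAT in 25.4% of genes and in 0 of these members. A match is only a description of the letters, and whether HuR binds any of these transcripts was not tested.

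Promoter sequence was read for Cyp4a32 and the 4 Cyp4f genes, from the RefSeq start sites on GRCm38. None was available here for Cyp4a10, Cyp4a12a, Cyp4a12b, Cyp4a14 and Cyp4a31, so the promoters of these genes were not searched. The 100 bases before the start are shown for the abundant Cyp4f14, for the scarce Cyp4f16 with its 2.06-fold difference, and for Cyp4a32. Capitals mark GATTGG, the reverse complement of CCAATC, a letter string chosen after the sequences had been seen.
Cyp4f14 (chr17:32917343-32917442, minus strand): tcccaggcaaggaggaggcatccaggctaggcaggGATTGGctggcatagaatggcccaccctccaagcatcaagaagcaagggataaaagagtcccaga
Cyp4f16 (chr17:32536457-32536556, plus strand): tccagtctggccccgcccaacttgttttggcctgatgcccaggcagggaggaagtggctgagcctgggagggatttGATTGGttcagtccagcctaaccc
Cyp4a32 (chr4:115600838-115600937, plus strand): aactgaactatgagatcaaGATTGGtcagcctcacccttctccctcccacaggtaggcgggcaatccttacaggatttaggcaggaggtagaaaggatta

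GATTGG began 65 bases before the start in Cyp4f14, 24 in Cyp4f16 and 81 in Cyp4a32, and also stood 77 and 79 bases before the start in Cyp4f13 and Cyp4f15. The windows searched, on both strands, were the 300 bases from 250 before the start to 50 from the start on, longer than the stretches printed. CCAATC is in 16.1% of the 32851 such windows. The nuclear receptor half-site AGGTCA is in 16.3% of these windows and in 0 of these 5. A direct repeat of it with 1 base between, the form PPAR-alpha binds, is in 0.0396% of them and in 0 of these 5, a share at which 0 of 5 was almost certain. TTCNNNGAA, the core of STAT5 sites, is in 8.30% of them and in 1 of these 5, Cyp4f13. Whether GATTGG has a part in the level of any of these genes was not tested.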

How the data were processed

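Raw counts per gene were used as deposited by the authors, with 1 library for each mouse. The submitters' processing notes name RSEM and GRCm38 without a role, and the strand setting of the counting is not given in the sources used here. The deposited counts are whole numbers, and each sample was assigned to its group by its label. Counts were filtered with filterByExpr (at least 10 counts, 15 in total), scaled by TMM and tested across 13001 genes with edgeR 4.0.16 (glmQLFit, glmQLFTest) in R 4.3.3, with Benjamini-Hochberg adjustment. CPM used the TMM-scaled library sizes, and per-length values used the annotated transcript (GENCODE M21). The fit of the 2 groups was tested on simulated data of between 12783 and 12800 genes. There, 79.7% of genes changed 2-fold and 100.0% of those changed 4-fold were recovered, that is, passed the fold and unadjusted p threshold. Of the genes left unchanged, 1.175% passed it too, in either direction. The changed genes were drawn only from genes with a higher mean CPM than Cyp4f16 and Cyp4a31, so the recovery rates do not cover genes as scarce as those.

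All 10 members are given, and from each gene list those that passed a fold of 1.8 with an unadjusted p under 0.05, or else the 2 with the smallest p. The members and lists were chosen with earlier results of these data known. Bmal1 and Cyp2c44 were not found by symbol. Alternatives were other scalings and filters, DESeq2 1.42.0, limma-voom (limma 3.58.1), a robust fit, summed copies, and each mouse left out. Results for some genes of the lists are not reported here.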

Additional observations from a re-analysis of the deposited data

How the results depend on the processing

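Cyp4a14 passed the fold and p threshold in all 13 alternatives, and Cyp4f16 in 10 of them. The number of members passing as higher was 2 with all libraries, 1 by DESeq2's Wald test, and between 1 and 2 with a mouse left out. The number passing as lower was 0 in every alternative. The number with an adjusted p under 0.05 was 1 (Cyp4a14) without scaling for library size and 1 without a filter on low counts, and between 0 and 1 with a mouse left out, the 1 being Cyp4a14 without control mouse 1. Without scaling, 510 genes of the whole table passed as higher and 61 as lower, against 157 and 119, and without a filter, 262 and 264. The number of all genes with an adjusted p under 0.05 was 3 with edgeR, 85 with DESeq2, 155 without scaling and 161 without a filter.

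Of the members near 0, the log2 fold change turned to 0.24 for Cyp4a12a and 0.31 for Cyp4f13 without scaling. For Cyp4a12b it turned to -0.00080 with upper quartile factors, -0.0040 without a filter, -0.0012 with at least 10 counts in every library, -0.019 by limma-voom and -0.048 when summed with Cyp4a12a. With a mouse left out it ran from -0.63 to 0.69 for Cyp4a10, -0.39 to 0.30 for Cyp4a12b, -0.56 to 0.68 for Cyp4a31 and -0.32 to 0.92 for Cyp4a32. In the Cyp4f genes it ran from -0.10 to 0.071 for Cyp4f13, -0.10 to 0.21 for Cyp4f14 and -0.053 to 0.43 for Cyp4f15. The cause of these turns was not tested. In these fits the lone mouse of a group was assumed to vary like the other group.

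No paired analysis was possible because the mouse numbers 1 to 4 are not shared between the groups. With 2 mice a group, differences smaller than the intervals given were not detectable.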
